A study of Mus musculus with 31 samples.

Results

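Axin2-null and Axin2 wild-type cells of the embryonic mouse medial cortex were compared gene by gene, in level and in the spread between libraries. The libraries were the 13 columns labelled Axin2-null (G1 to G13) and the 12 labelled Axin2 wild type (R1 to R12) of a Smart-seq2 table, 25 of the 31 samples of the series. Of the 55487 genes in that table, 10249 were listed at 1 TPM (transcripts per 1000000) or more in at least 13 of the 25 libraries and were kept, 9667 of them protein coding. Genes were thus chosen by their measured TPM over both genotypes together. The threshold fell inside a continuous range: 361 genes stood at exactly 13 libraries, with a median mean level of 3.74 TPM, and 355 genes stood at exactly 12 libraries and were left out, with a median of 3.27 TPM.

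Both genotypes were collected at E11.5 (embryonic day) from crosses of mice carrying Emx1-CreERT2, MADM-11 and Axin2LacZ/+. The sample titles read Emx1-cre(+/-)::MDMD::Axin2(-/-) for the null libraries and Emx1-cre(+/-)::MDMD::Axin2(+/+) for the wild-type ones, so both carried the Cre driver and the mosaic cassette. MADM (mosaic analysis with double markers) produces differently coloured sister cells by recombination between a pair of chromosomes, here chromosome 11, which holds Axin2. CreERT2 is active after exposure to tamoxifen, whose dose and day are not given in the sources used here. The Emx1 promoter is active in dorsal telencephalic progenitors. The medial cortex was dissociated and the cells of each genotype were separated, with sample descriptions that name the null libraries green and the wild-type ones red. Colour and genotype therefore cannot be told apart.

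Axin2 is a scaffold of the destruction complex, in which the Apc protein and the kinases Gsk3 and casein kinase 1 mark β-catenin for degradation. When a Wnt ligand binds its receptors, the complex is held at the membrane, β-catenin accumulates and acts with Tcf and Lef factors on target genes. Axin2 is itself such a target, so it serves both as a reporter of Wnt signalling and as its negative feedback. The medial wall of the embryonic cortex lies beside the cortical hem, a source of Wnt and Bmp ligands that patterns the adjacent hippocampal field.

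The labels describe single cells but tie none of them to an embryo, so each genotype was treated as 1 sample, and no test between genotypes was made. Values are given as the lowest, the median and the highest library of each genotype. The difference in level is the mean of log2(TPM + 1) over the null libraries minus that over the wild-type libraries, a scale that understates the difference of low genes. A difference of 1 was used as the mark of a large value in either direction. TPM keeps no depth, so the number of reads behind each value is unknown, and a gene listed at 0 may have been expressed.

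Library quality differed within both genotypes. Genes at 1 TPM or more numbered 7863 to 11852 in the null libraries (median 10791) and 8693 to 12209 in the wild-type ones (median 11271). A ribosomal RNA gene, CT010467.1, took 1.10% to 31.2% of the TPM in null and 1.05% to 32.7% in wild-type libraries, and exceeded 25% in G6, G7, R1 and R3. The 4 libraries with the lowest gene numbers in null were G1, G7, G9 and G10. Over the 25 libraries the gene number and the share of CT010467.1 had a Spearman correlation of -0.67, a description with no test. Transcripts of the mitochondrial genome took 0.38% to 5.71% in null (median 1.84%) and 2.11% to 8.80% in wild type (median 3.40%), and 7 of 13 null libraries lay under the lowest wild-type library. Spearman correlations over the kept genes had a median of 0.70 between null libraries, 0.73 between wild-type libraries and 0.71 between a null and a wild-type library. By this measure the genotypes overlapped.

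**Figure D1:**
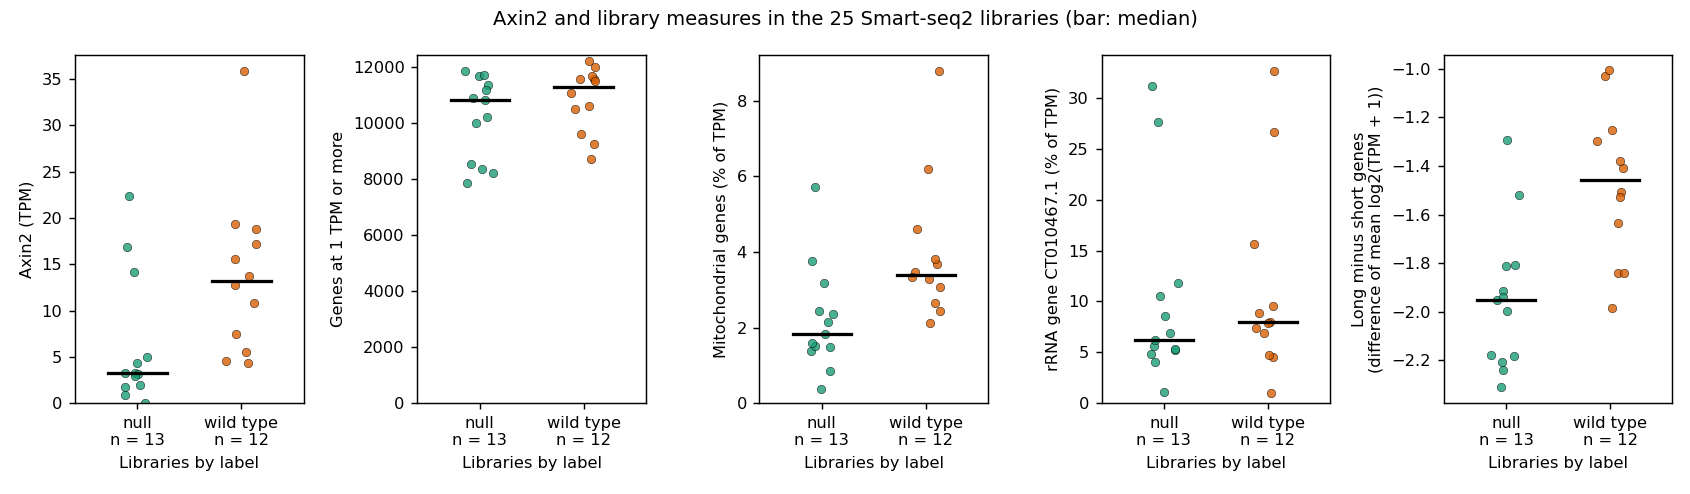
Each point is 1 of 13 null or 12 wild-type libraries, and the bar is the median. The first vertical axes give Axin2 in TPM and the number of genes at 1 TPM or more. The next give the percentages of TPM from the mitochondrial genome and from CT010467.1. The last gives the mean log2(TPM + 1) of the 2 longest classes of genes (of 10 by exon length) minus that of the 2 shortest. Axin2, the mitochondrial share and the long-minus-short value lie lower in null, with overlap in every panel, while the share of CT010467.1 spans 1.10% to 31.2% in null and 1.05% to 32.7% in wild type.

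The labelled tissue was checked against its defining genes. Lhx2, a selector of cortical identity, was present in all 25 libraries at 166, 267 and 399 TPM in null and 184, 234 and 382 TPM in wild type. Emx1, whose promoter drove the Cre, was also present in every library, at 7, 70.4 and 149 TPM in null and 32.1, 69.6 and 139.9 TPM in wild type. The radial progenitor gene Vim stood at 288, 463 and 622 TPM and 379, 504 and 772 TPM. Tubb3, a tubulin of young neurons, reached 31.8, 469 and 1017 TPM in null and 148, 456 and 718 TPM in wild type, although the samples are labelled neural progenitor cells. Haemoglobin transcripts of the embryonic gene Hbb-y were found in all 25 libraries, at 468, 2524 and 15421 TPM in null and 226, 2289.7 and 13702 TPM in wild type. Genes of both sexes (Xist together with a Y-linked gene at 1 TPM or more) were present in 2 of 13 null and 4 of 12 wild-type libraries, and each of the other libraries showed only Xist or only Y-linked genes. Whether a library held 1 cell or several is therefore not settled by the values.

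Axin2 itself (chr11:108920349-108950783, plus strand, GRCm38, a protein-coding gene with 5506 nt of annotated exon) was lower in null. Its levels were 0, 3.28 and 22.4 TPM in null and 4.32, 13.2 and 35.9 TPM in wild type, a difference of -1.37. The genotypes overlapped: 8 of 13 lay under the lowest wild-type library, 1 was listed at 0 and a second was under 1 TPM, while G2, G8 and G11 at 22.4, 16.9 and 14.2 TPM lay above the wild-type median. The labels do not say which exons the Axin2LacZ allele removes, and TPM sums over the gene, so transcript from the remaining part would count here. G3 and G7, at 4.99 and 4.37 TPM, were also inside the wild-type range. Of all kept genes, 932 (9.09%), Axin2 among them, were lower in null by 1 or more. A lower Axin2 value therefore does not settle the genotype of a library, and the libraries are called null below as labelled. Without the 4 libraries rich in CT010467.1 the difference of Axin2 was -1.16.

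The gene start of Axin2 is shown because the allele, the reporter use and the difference all concern this gene. The sequence is the RefSeq promoter window on GRCm38.p6, chr11:108920099-108920398, plus strand, 250 bases before to 50 after the start, with the only CCAAT box (CCAAT, here on the minus strand as ATTGG, 14 bases after the start) in capitals.
Axin2: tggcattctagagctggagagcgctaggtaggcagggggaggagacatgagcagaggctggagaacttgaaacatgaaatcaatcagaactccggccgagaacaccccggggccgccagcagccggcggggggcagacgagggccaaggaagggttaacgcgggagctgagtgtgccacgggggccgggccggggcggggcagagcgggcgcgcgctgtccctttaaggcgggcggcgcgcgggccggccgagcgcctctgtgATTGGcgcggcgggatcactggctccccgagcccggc
The Tcf/Lef core CTTTGA, searched on both strands, had no match in this window and was present in 16.0% of 32851 RefSeq promoter windows of the same length, and CCAAT was present in 37.4%. These counts describe letters and not binding.

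The other 17 genes listed for the destruction complex were mostly a little lower in null as well. With Axin2, 17 of the 18 were kept, their median difference was -0.50 beside -0.24 over all kept genes, and 3 of 17 were lower by 1 or more, beside 9.09% of all kept genes. After the median of each length class was subtracted, the median of the list was -0.04. Axin1, the broadly expressed partner scaffold, differed by 0.08, at 0, 3.06 and 22.15 TPM in null and 0, 3.09 and 6.69 TPM in wild type. Csnk1d, a casein kinase 1 isoform, differed by -1.02, and the tankyrase Tnks2, which promotes axin turnover, by -1.004. Ctnnb1, encoding β-catenin, was abundant in every library, at 161, 270.1 and 442 TPM in null and 174, 370.5 and 533 TPM in wild type, a difference of -0.34. Gsk3b differed by -0.02.

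Across all kept genes the null libraries were lower more often than higher. The median difference was -0.24 (quartiles -0.62 and 0.11), and 6927 genes lay below 0 (67.6%) against 3322 above it (32.4%). By 1 or more, 932 genes (9.09%) were lower in null and 119 (1.16%) higher, together 10.3% of the kept genes. After the median was subtracted from every gene the counts were 448 lower and 277 higher, so the lower share of these genes went from 88.7% to 61.8%. No kept gene separated the genotypes: for 0 of 10249 genes did every library of a genotype lie above every library of the other. The typical gene that was lower by 1 or more was detected in 9 of 13 null and 11 of 12 wild-type libraries, and the typical gene higher by 1 or more in 12 of 13 and 8 of 12.

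The difference followed exon length. The kept genes were put in 10 classes of equal size by annotated exon length. In the shortest class (204 to 1535 nt) the median difference was 0.18, with 44 genes higher and 44 lower by 1 or more. The longest class (10137 to 41324 nt) had a median of -0.47, with 2 higher and 118 lower. Across genes, which are not independent replicates, the Spearman correlation of difference and length was -0.31. Genes lower by 1 or more had a median exon length of 5458 nt, against 2108 nt for those higher by 1 or more and 4431 nt for all kept genes. The same contrast appeared within libraries, as the mean log2(TPM + 1) of the 2 longest classes minus that of the 2 shortest. This contrast was -2.31, -1.95 and -1.29 in null and -1.98, -1.46 and -1.01 in wild type. So 6 of 13 null libraries lay below every wild-type one. Its part in the result was not tested. After the median of each length class was subtracted, 434 genes were lower and 234 higher by 1 or more.

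**Figure D2:**
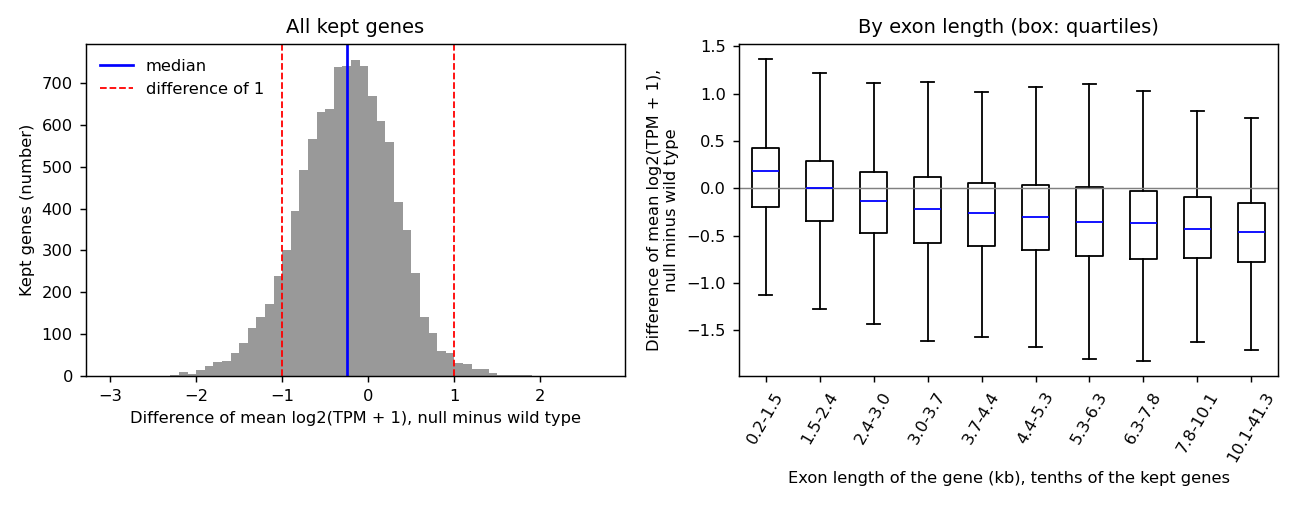
The histogram on the left counts kept genes by their difference of mean log2(TPM + 1), null minus wild type, with the median (solid) at -0.24 and a difference of 1 in either direction (dashed); on the right, boxes give the median and quartiles, with whiskers that leave out outlying genes, of the same difference for 10 classes of genes by exon length in kb. The median passes from 0.18 in the shortest class to -0.47 in the longest.

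The difference also varied with the level of the gene. Of 5 classes of equal size by level, the most abundant, with mean log2(TPM + 1) above 5.86, had a median difference of 0.02, and 21 genes were lower and 10 higher by 1 or more. In the second class from the bottom the median was -0.41, with 310 lower and 31 higher. The large differences therefore stood among genes of low or middle level, where libraries listed at 0 were frequent.

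Psmb10, a catalytic subunit of the immunoproteasome, had the largest positive difference of the kept genes. It lies at chr8:105935735-105938444, minus strand (GRCm38). It stood at 13.2, 46.7 and 91.1 TPM in null and 0, 10.4 and 65.8 TPM in wild type, a difference of 2.69, and was detected in 13 of 13 null and 8 of 12 wild-type libraries. All 13 null libraries lay above the wild-type median of 10.4 TPM, but only 2 above the highest wild-type library. The wild-type libraries listed at 0 were R1, R2, R3 and R7, which belong to the earlier run of columns in the table's header (G1 to G7 and R1 to R7), and in the later 11 columns the difference was 0.94. Of the 32 proteasome genes kept, Psmb10 alone passed 1, beside 10.3% of all kept genes in either direction. Their median difference was 0.05, beside -0.24 over all kept genes.

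The other genes with large positive differences came from several processes, and 11 are named by the rule. Mutyh, a glycosylase that repairs mispairs of oxidised guanine, stood at 8.43, 20.75 and 72.1 TPM in null and 0, 4.71 and 37.8 TPM in wild type, a difference of 1.89. Mt3, a metal-binding metallothionein of the brain, stood at 7.15, 50.1 and 186 TPM and 0, 16.7 and 60.02 TPM, a difference of 1.69. The histone genes Hist1h2bj and Hist1h3b differed by 1.81 and 1.61. Rita1, encoding a protein that binds and restrains the Notch effector Rbpj, differed by 1.59 and shares exon sequence with Iqcd. Smim26 stood at 33.65, 65.2 and 238 TPM in null and 0, 51.6 and 119 TPM in wild type, where 2 libraries (R1 and R2) were listed at 0. Fcor, a corepressor of Foxo1, differed by 1.46, the mitochondrial adenylate kinase gene Ak4 by 1.38, and Gnpnat1, of hexosamine synthesis, by 1.37. Npm3, of the nucleoplasmin family, differed by 1.37, with a highest null library (G8) of 261 TPM beside a null median of 5.64 TPM. Gpank1 differed by 1.68. Gpank1 and Gnpnat1 overlap exons of Csnk2b and Styx, and reads from overlapping genes may be assigned to either.

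Edil3, a secreted integrin-binding matrix protein, had the largest negative difference among the genes named by the rule. It lies at chr13:88821472-89323223, plus strand (GRCm38) with 13677 nt of exon. Its levels were 0, 0.30 and 16.03 TPM in null and 5.97, 15.03 and 60.4 TPM in wild type, a difference of -2.67. It was detected in 6 of 13 null and 12 of 12 wild-type libraries, and 10 of 13 null libraries lay under the lowest wild-type one. G11 and G12, at 15.95 and 16.0 TPM, were inside the wild-type range.

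Of the other 11 genes named on the lower side, Morc2a, a chromatin-compacting ATPase, stood at 0, 2.59 and 19.9 TPM in null and 2.79, 17.8 and 39.55 TPM in wild type, a difference of -2.29. Trim33, a ubiquitin ligase that acts on Smad signalling, stood at 0, 3.44 and 29.1 TPM and 7.39, 13.4 and 39.4 TPM, a difference of -2.19, with 11 of 13 null libraries under the lowest wild-type value. Ndc80, the outer kinetochore protein that holds microtubules, stood at 0, 13.3 and 97.2 TPM and 12.6, 42.7 and 62.8 TPM, a difference of -2.18. For Ndc80, 4 null libraries were under 1 TPM, while the highest library of either genotype was the null library G10. Wrnip1, which acts at stalled replication forks, differed by -2.14, and the transcription cofactor gene Lcorl by -2.14.

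Lpcat4, an acyltransferase of membrane phospholipids, differed by -2.31 and was detected in 4 of 13 null and 11 of 12 wild-type libraries. Agps, which makes ether lipids in peroxisomes, differed by -2.15, and Exoc6b, a subunit of the exocyst, by -2.17. Syap1 differed by -2.21, Lysmd2 by -2.21, and Raet1d, a ligand of a natural killer cell receptor, by -2.14. Raet1d shares exon sequence with its relative Raet1e, and Lcorl with Ncapg, so their values are uncertain. The heat map of these genes shows that the negative differences rest on many null libraries near 0, most often G1, G6, G7, G9 and G10. Of these, G1, G7, G9 and G10 have the lowest gene numbers, and the part of that in the result was not tested.

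**Figure D3:**
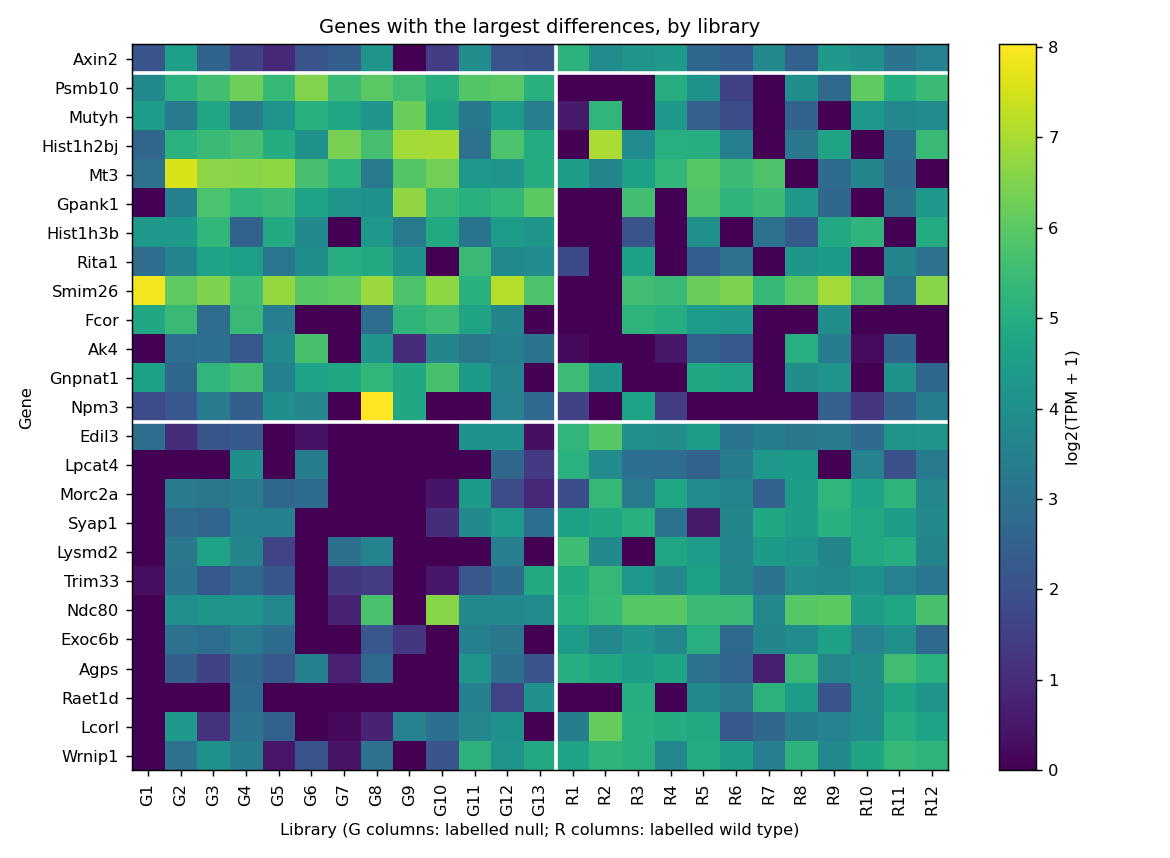
Colour gives log2(TPM + 1) of Axin2 (top row) and the genes named by the rule (rows) in each of the 25 libraries (columns, null to the left of the white line). These are the 12 per direction with the largest difference among genes averaging 10 TPM or more in the higher genotype. Predicted genes, clone names and pseudogenes were left out. Some kept genes outside this rule had larger differences. Psmb10 is above 13 TPM in every null library and listed at 0 in 4 wild-type ones, and Edil3 is above 5.9 TPM in every wild-type library.

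Wnt ligands and the genes for their secretion were lower in null as a list. Of the 25 listed, 9 were kept, and all 9 differences were below 0, beside 67.6% of all kept genes. The median was -0.65, beside -0.24 over all kept genes. Of the 9, 1 passed 1 on the lower side, beside 9.09% of all kept genes. Wls, the carrier that brings Wnt ligands to the cell surface, passed it, with 7.34, 24.15 and 65.75 TPM in null and 33.5, 43.3 and 159 TPM in wild type, a difference of -1.24. For Wls, 9 of 13 null libraries were under the lowest wild-type one. Rspo2, a secreted enhancer of Wnt signalling, differed by -0.98, Wnt5a by -0.91, Wnt8b by -0.65 and Wnt7b by -0.20. The genotypes overlapped widely for Rspo2, whose levels were 0, 2.56 and 45.7 TPM in null and 0, 13.5 and 70.4 TPM in wild type. Most of the other listed ligands were below the level required to be kept.

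Feedback and target genes of the pathway had differences of both signs. Of 17 kept, 13 were below and 4 above 0, and 2 were lower by 1 or more, Axin2 and Msx2. Over all kept genes 67.6% were below 0 and 9.09% were lower by 1 or more. Msx2, a homeobox gene of the dorsal midline, stood at 0, 2.26 and 15.97 TPM in null and 0, 6.59 and 32.5 TPM in wild type. Tnfrsf19, a Wnt-responsive receptor, stood at 26.97, 53.7 and 186 TPM in null and 62.6, 99.4 and 158 TPM in wild type, a difference of -0.76, with 9 of 13 null libraries under the lowest wild-type one. Differences of Lef1, Nkd1 and Znrf3 were -0.34, -0.16 and -0.20, near the median of all kept genes. Sfrp2, a secreted Wnt antagonist, and the naked-cuticle gene Nkd2 differed by 0.58 and 0.48.

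Among receptors and nuclear factors, 17 of 30 were kept and their median difference was -0.34, beside -0.24 over all kept genes. Their median exon length was 7916 nt, and the median difference was 0.02 after that of each length class was subtracted. Of the 17, 1 was lower by 1 or more, beside 9.09% of all kept genes. That gene was Ror2, a receptor for Wnt5a, which differed by -1.02. Tcf7l2, a Tcf factor, went the other way, at 3.88, 47.9 and 105 TPM in null and 17.8, 27.7 and 70.5 TPM in wild type, a difference of 0.58, and 12 of 13 null libraries lay above the wild-type median. Tcf7l2 in null had the wider spread, with an SD of log2(TPM + 1) of 1.13 against 0.59.

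Genes of signalling by fibroblast growth factors (FGF) through the kinase ERK were lower in null as a list, which holds receptor genes as well as feedback genes. Of 20 listed, 13 were kept, 12 were below 0, the median difference was -0.65 and 4 were lower by 1 or more. Over all kept genes 67.6% were below 0, the median was -0.24 and 9.09% were lower by 1 or more. Dusp6, the ERK phosphatase that ERK signalling induces, stood at 0, 8.04 and 79.05 TPM in null and 13.9, 39.9 and 70.4 TPM in wild type, a difference of -2.04. For Dusp6, 7 of 13 null libraries were under the lowest wild-type one and 2 were above the wild-type median. Etv5, an Ets factor downstream of FGF, differed by -1.36, the feedback inhibitor Spry1 by -1.22 and the phosphatase gene Dusp4 by -1.05. The receptor genes Fgfr1 and Fgfr3 differed by -0.71 and -0.70, and Fgfr2 by 0.11. After the median of each length class was subtracted, the median of the list was -0.33.

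Dusp6 is shown as the member of this list with the largest difference. Its RefSeq window on GRCm38.p6 is chr10:99262981-99263280, plus strand, with the 1 CCAAT box (minus strand, read here as ATTGG, 46 bases before the start) in capitals.
Dusp6: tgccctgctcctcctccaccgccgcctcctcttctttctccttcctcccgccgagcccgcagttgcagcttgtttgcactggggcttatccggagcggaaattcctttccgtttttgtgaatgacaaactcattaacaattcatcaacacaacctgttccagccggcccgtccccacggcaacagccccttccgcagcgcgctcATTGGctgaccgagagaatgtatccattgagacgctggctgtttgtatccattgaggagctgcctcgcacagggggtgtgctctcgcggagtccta
Neither the Tcf/Lef core CTTTGA nor the Ets site CCGGAAGT was found in this window.

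Genes that place a cell along the medial wall were partly lower. Of 19 kept genes of the cortical hem and choroid plexus, 16 were below 0, the median was -0.69 and 3 were lower by 1 or more, beside 67.6%, -0.24 and 9.09% over all kept genes. They were Msx2, Zic4 and Folr1. Zic4 stood at 0, 12.5 and 55.4 TPM in null and 3.54, 32.98 and 86.1 TPM in wild type and shares exon sequence with Zic1, which differed by 0.06. Folr1, a folate receptor of the choroid plexus, ranged from 0 to 149 TPM in null and from 0 to 167 TPM in wild type. Ttr, the transthyretin of the choroid plexus, was present in all 25 libraries, at 60.3, 533 and 973 TPM in null and 21.55, 429 and 771 TPM in wild type. Lmx1a, which defines the hem, was detected in 7 of 13 null and 7 of 12 wild-type libraries.

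Cortical patterning genes were near the bulk of the genes, with a median of -0.29 over 23 kept and 2 lower by 1 or more. Over all kept genes the median was -0.24 and 9.09% were lower by 1 or more. Ets1 differed by -1.17, while Lmo3 was higher in null, at 0, 43.98 and 80.7 TPM against 1.94, 15.6 and 84.9 TPM. Emx2, Lhx2 and Pax6 differed by -0.32, 0.03 and -0.06.

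Progenitor genes also had differences of both signs. Of 25 kept, the median difference was -0.25 and 3 were lower by 1 or more, beside -0.24 and 9.09% over all kept genes. Cdh2, the N-cadherin of apical junctions, stood at 16.9, 50.7 and 86.00 TPM in null and 69.1, 84.4 and 146 TPM in wild type, a difference of -1.06, and 10 of 13 null libraries lay under the lowest wild-type one. Prom1, of apical membrane protrusions, stood at 5.08, 38.1 and 108 TPM and 43.8, 68.3 and 138 TPM, a difference of -1.23. Sox1 differed by -1.02. Fabp7, a fatty acid carrier of radial glia, and Dbi were higher, by 0.40 and 0.56, and Hes5, a Notch target, differed by 0.09.

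Junction and polarity genes were lower beside Cdh2, with a median of -0.47 over 23 kept genes and 4 lower by 1 or more, beside -0.24 and 9.09% over all kept genes. Tjp1, the tight-junction scaffold ZO-1, stood at 0, 1.93 and 14.1 TPM in null and 2.86, 10.7 and 45.6 TPM in wild type, a difference of -1.76. Ctnnd1, the p120 catenin that stabilises cadherins, differed by -1.52, and Cdh11 by -1.10. These are long transcripts, with a median exon length of 7319 nt in the list, and after the median of each length class was subtracted the median of the list was -0.09.

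Genes of the cell cycle were detected in both genotypes. All 44 S phase genes were kept, with a median difference of -0.27 and 7 lower by 1 or more, and all 51 genes of the G2 and M phases, with -0.33 and 5 lower. Both medians lay near the -0.24 of all kept genes, of which 9.09% were lower by 1 or more. Hells, a chromatin remodeller of S phase, stood at 3.96, 26.2 and 101 TPM in null and 35.7, 61.5 and 108 TPM in wild type, a difference of -1.26, and 9 of 13 null libraries were under the lowest wild-type one. Kif11, the spindle motor, differed by -1.31, and the proliferation antigen gene Mki67 by -0.75. In the other direction the mitotic checkpoint kinase gene Ttk differed by 0.83 and Cdca3 by 0.44.

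Of 28 kept pan-neuronal genes the median difference was -0.45 and 1 was lower by 1 or more, beside -0.24 and 9.09% over all kept genes. The SD in null was larger by 0.5 or more for 10 of the 28, beside 14.2% of all kept genes. The gene past 1 was L1cam, an adhesion molecule of axons, at 0, 1.99 and 31.9 TPM in null and 0, 19.5 and 51.6 TPM in wild type, which shares exon sequence with Arhgap4. Snap25, of the synaptic vesicle machinery, was higher in null by 0.64. Without the 3 libraries least correlated with the others (R1, G1 and G7) the median of the list was -0.08. Of 17 glutamatergic genes, 16 were below 0 and 3 were lower by 1 or more, beside 67.6% and 9.09% of all kept genes, and the median after subtracting that of each length class was -0.08. These included Neurod6, at 0, 15.8 and 234 TPM in null and 19.9, 39.99 and 337 TPM in wild type.

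Ribosomal protein genes were nearly all higher in null, by small differences. All 79 ribosomal protein genes were kept, 78 lay above 0 beside 32.4% of all kept genes, and the median difference was 0.33, with 0 past 1. Rpl37 stood at 285, 620.3 and 1097 TPM in null and 262, 369 and 665 TPM in wild type, a difference of 0.65, and Rpl35 and Rpl39 differed by 0.61 and 0.60. Rpl4 alone was below 0, at -0.12. The summed level of the 79 genes was 89319, 135303 and 161231 TPM in null and 77207, 103881 and 136798 TPM in wild type, with overlap. TPM shares a fixed total among genes, so the levels of these groups are not independent. The median after subtracting that of each length class was 0.33 as well. Of 30 genes for making ribosomes in the nucleolus, 23 lay below 0, beside 67.6% of all kept genes. Their median was -0.35 and 0 were past 1, beside -0.24 and 10.3% over all kept genes. With the median of each length class subtracted, the median of these 30 was -0.09.

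Rpl37 is shown as the ribosomal protein gene with the largest difference. Its RefSeq window on GRCm38.p6 is chr15:5116363-5116662, plus strand, with a CCAAT box (101 bases before the start) and an Ets site (CCGGAAGT, 23 bases before the start) in capitals, both on the plus strand.
Rpl37: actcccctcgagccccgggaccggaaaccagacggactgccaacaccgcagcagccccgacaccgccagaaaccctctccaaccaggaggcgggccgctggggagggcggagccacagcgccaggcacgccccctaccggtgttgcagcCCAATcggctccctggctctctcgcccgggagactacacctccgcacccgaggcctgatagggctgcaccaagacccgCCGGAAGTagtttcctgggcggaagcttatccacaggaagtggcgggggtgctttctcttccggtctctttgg
CCGGAAGT, counted on both strands, was present in 3.89% of the 32851 windows.

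Nuclear and mitochondrial genes for respiration differed in opposite directions. Of 37 nuclear genes of oxidative phosphorylation, 30 lay above 0 with a median of 0.30, beside 32.4% and -0.24 over all kept genes. Atp5e, a subunit of the ATP synthase, stood at 1130.3, 1810.1 and 2697 TPM in null and 822, 1042 and 1529 TPM in wild type. For Atp5e, all 13 null libraries lay above the wild-type median. The 13 protein-coding genes of the mitochondrial genome were all below 0 with a median of -1.29, and 12 of 13 were lower by 1 or more. Over all kept genes 67.6% were below 0 and 9.09% were lower by 1 or more. mt-Co1, a subunit of cytochrome oxidase, stood at 339, 1247 and 4395 TPM in null and 1321, 2252 and 4986 TPM in wild type, a difference of -1.13. mt-Cytb stood at 23.1, 1763 and 6756 TPM and 2175, 3629.7 and 10219.6 TPM, a difference of -1.55, and 9 of 13 null libraries lay under the lowest wild-type one. mt-Nd6, the protein gene on the opposite strand of that genome, overlaps mt-Nd5 and differed by -0.24. Summed, the 13 genes gave 1652, 15220 and 47908 TPM in null and 18558, 31071 and 71309 TPM in wild type. The mitochondrial share of a library and its long-minus-short value had a Spearman correlation of 0.81 over 25 libraries, 0.36 within null and 0.91 within wild type, a description with no test. Without R1, G1 and G7 the median of the list was -0.90.

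Replication-dependent histone genes were higher in null. Of 51 listed, 29 were kept and 25 lay above 0, beside 32.4% of all kept genes. The median was 0.61, beside -0.24 over all kept genes, and 5 were higher by 1 or more, beside 1.16%. The 5 were Hist1h2bj, Hist1h3b, Hist1h2an, Hist1h1a and Hist1h2bg. Hist1h2bj stood at 5.32, 42.1 and 125 TPM in null and 0, 12.1 and 129 TPM in wild type. Hist1h2ap, by far the most abundant, stood at 4289.6, 10502 and 14552 TPM and 5581, 8209 and 12143 TPM, a difference of 0.20. Summed over the 51 genes the levels were 5626, 12828 and 16827 TPM in null and 7374, 9639 and 13437 TPM in wild type. The list is of short genes (median exon length 586 nt), and its median after subtracting that of each length class was 0.42. Histone genes are near-identical copies, so reads may be split between them.

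Of 28 kept p53 targets, 22 lay below 0, the median was -0.42 and 4 were lower by 1 or more, beside 67.6%, -0.24 and 9.09% over all kept genes. After the median of each length class was subtracted, the median of the list was -0.07. Cdkn1a, the p53-induced cell cycle inhibitor, stood at 3.30, 31.00 and 306 TPM in null and 9.98, 37.4 and 159.7 TPM in wild type, and the genotypes overlapped. Trp53 differed by -0.21. Of 23 apoptosis genes the median was -0.13, and 1, Casp8, was lower by 1 or more, with detection in 5 of 13 null and 8 of 12 wild-type libraries. The list of 27 kept genes tied to cell competition had a median of -0.28 and 0 past 1, with Wwtr1, encoding the Hippo effector Taz, at 0.86 and its relative Yap1 at -0.88. Myc, often tied to competition, stood at 0, 11.3 and 34.9 TPM in null and 0, 13.95 and 33.35 TPM in wild type, and Mycn differed by -0.55.

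**Figure D4:**
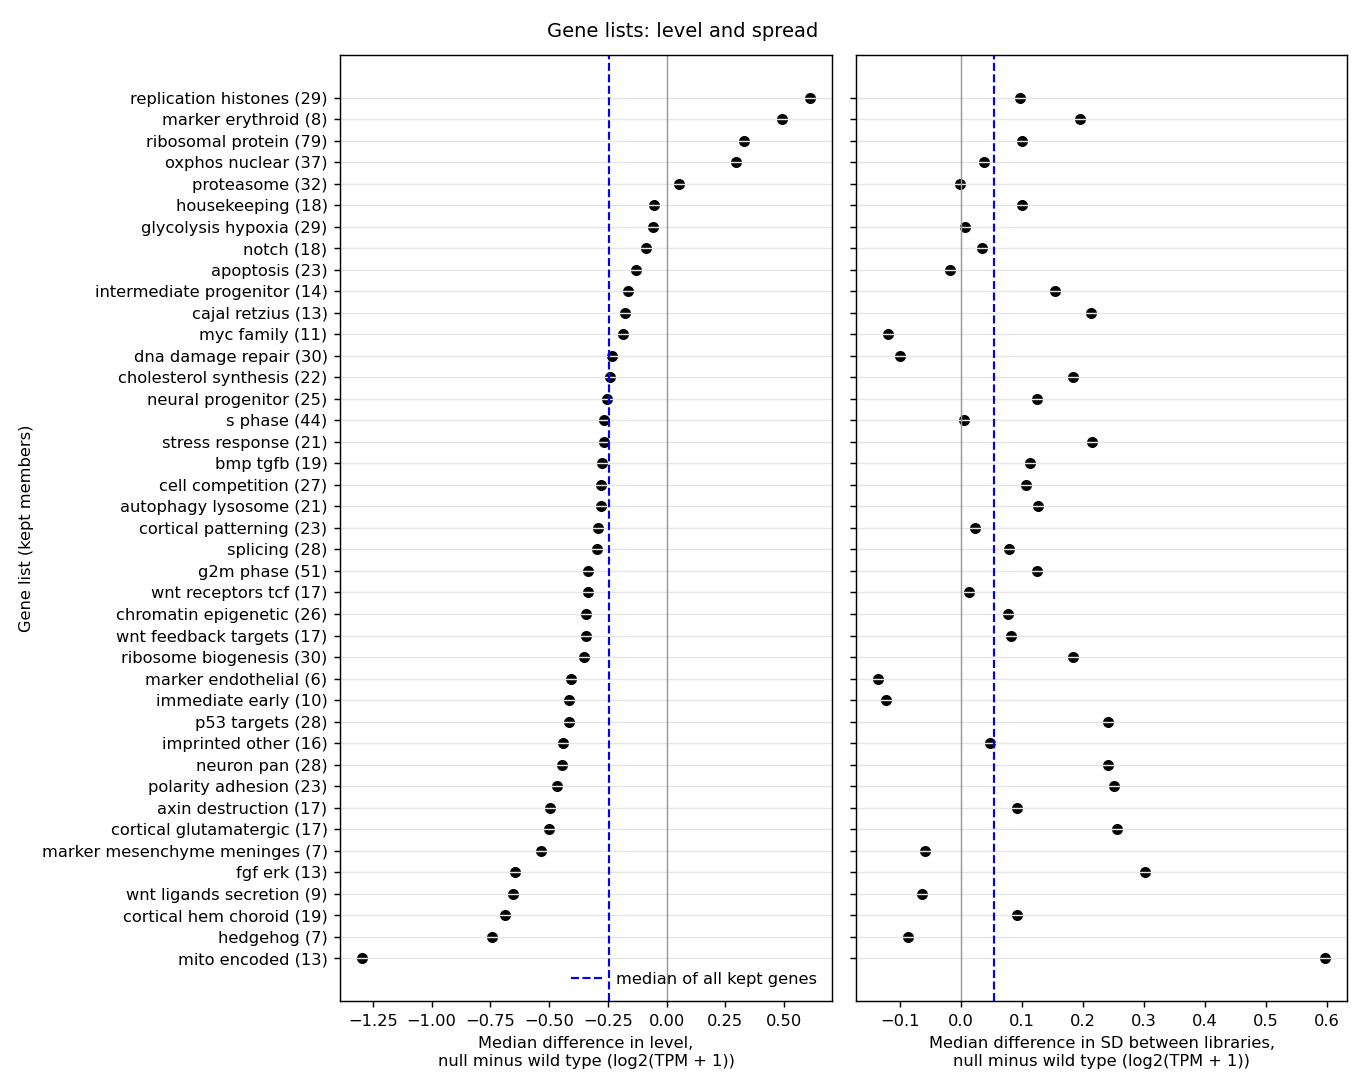
Each row is a gene list with at least 5 kept members, and their number; points give the median difference of mean log2(TPM + 1) (left) and of the SD between libraries (right), null minus wild type, and the dashed lines give the medians of all kept genes, -0.24 and 0.05. Replication histones (0.61), erythroid markers (0.49), ribosomal proteins (0.33) and nuclear respiratory genes (0.30) lie to the right in level, and the mitochondrial genome (-1.29) to the left, where it also has the largest median difference in SD.

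The spread between libraries was slightly larger in null. The SD of log2(TPM + 1) had a median over kept genes of 1.29 in null and 1.18 in wild type, and 55.8% of genes had the larger SD in null. By 0.5 or more, the SD was larger in null for 1451 genes (14.2%) and smaller for 726 (7.08%). Spread depended on level: the median SD in the most abundant class was 0.59 in null and 0.57 in wild type, and in the middle class 1.49 and 1.32. This contrast depended on the libraries used: the median difference in SD was 0.05 in all, -0.07 in the earlier 14 columns and 0.27 in the later 11. Without R1 the count of genes with a smaller SD in null was 480.

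**Figure D5:**
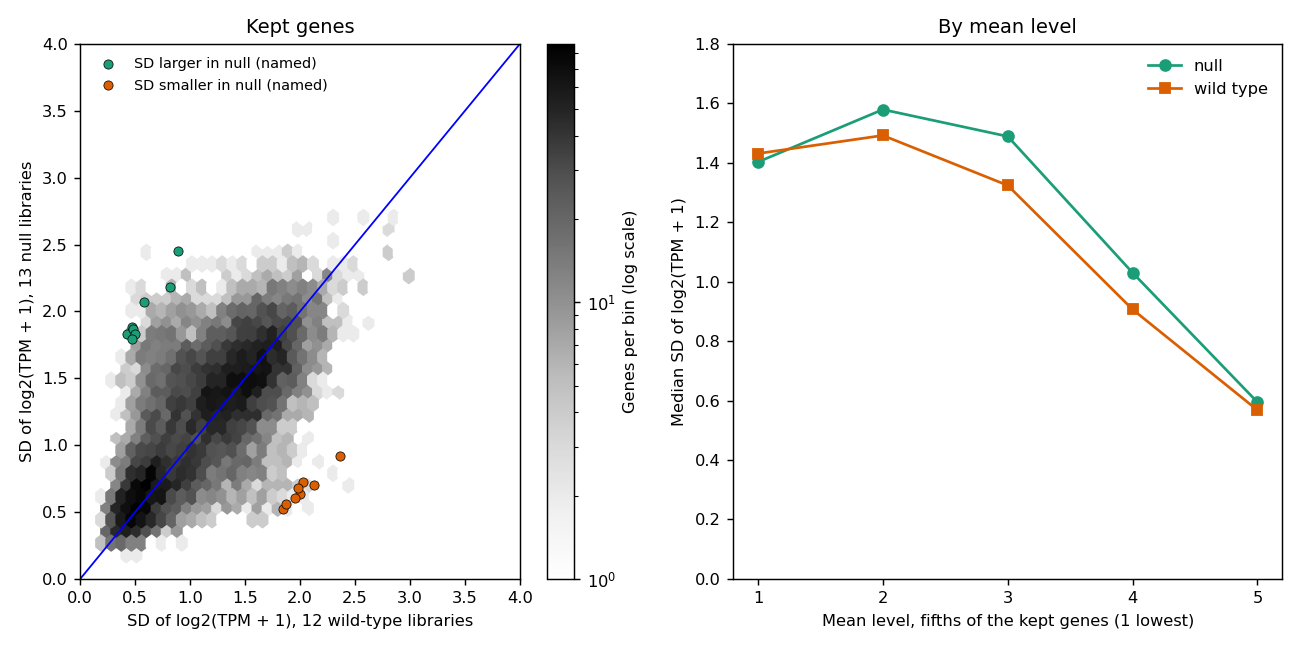
On the left, grey shading counts kept genes (log scale) by SD of log2(TPM + 1) in the 12 wild-type libraries (horizontal) and the 13 null libraries (vertical), with the 16 named genes coloured and equal SD as a line; on the right, points give the median SD for 5 classes of genes by mean level. The null median lies above the wild-type one in 4 of the 5 classes and below it in the lowest, at 1.403 against 1.43.

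The genes with the largest excess of spread in null were listed at 0 in 1 or 2 null libraries each. Hist1h2ab had an SD of 2.45 against 0.89, with 2 of 13 null libraries listed at 0 and the others between 42.6 and 167 TPM, beside 15.7 to 134 TPM in wild type. Slc25a1, the mitochondrial citrate carrier, had 1.88 against 0.47, with levels of 0, 99.3 and 139 TPM in null and 53.6, 84.5 and 159 TPM in wild type. Cby1, a protein that binds β-catenin and restrains it, had 1.83 against 0.42, with levels of 0, 79.35 and 122 TPM and 46.6, 76.8 and 112 TPM. Fbxo44, Tpgs1, Crym, Uqcc3 and Triap1 made up the 8, and each had 1 or 2 null libraries listed at 0 and 0 wild-type ones. By the median absolute deviation, which gives such libraries little weight, the direction turned for Hist1h2ab (-0.26), Fbxo44 (-0.10), Tpgs1 (-0.043) and Uqcc3 (-0.057). Without R1, G1 and G7 the SD difference of Slc25a1 was -0.031. In the earlier 14 columns that of Cby1 was -0.031, and in the later 11 that of Fbxo44 was -0.086.

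Genes with less spread in null had low values in a few wild-type libraries, 1 for some and 3 for others. Selenop stood at 2.03, 4.74 and 0 TPM in R1, R2 and R3, all under the lowest null library at 7.33 TPM. Zfp386 stood at 0.73, 5.51 and 0 TPM in the same libraries, under a lowest null value of 12.8 TPM, and Pstk at 0, 3.1 and 0 TPM in R3, R4 and R9, under 8.41 TPM. Dlgap4, a postsynaptic scaffold, had an SD of 0.63 against 1.998, with a lowest wild-type library of 0.25 TPM beside a median of 96.1 TPM. Pstk, a kinase of selenocysteine synthesis, had 0.92 against 2.36, and Selenop, a selenium transport protein, 0.72 against 2.03. Pstk and Selenop share exon sequence with Ikzf5 and Ccdc152. Timm8a1, Commd2, Fam216a and Commd10 completed the 8. For Commd2 and Fam216a the difference in SD was 0.11 and 0.17 without R1, and for Commd10 it was 0.12 without R2, so single libraries set their direction.

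Among 2264 genes detected in all 25 libraries at a mean of at least 50 TPM, the steadiest were Rps27a, Rps3a1, Rpl10a, Hsp90ab1 and Rack1, with SDs over the 25 libraries of 0.23 to 0.27 beside a median of 0.64. Rps27a stood at 1143, 1652 and 1998 TPM in null and 1119.5, 1477 and 1586 TPM in wild type, and shares exon sequence with Clhc1. The most variable were Rac1, Hba-x, Kif23, mt-Cytb and Hist2h3c2, with SDs of 1.62 to 1.94. Rac1, a GTPase of the actin skeleton, ranged from 8.94 to 313 TPM in null and from 4.02 to 495 TPM in wild type, and shares exon sequence with Daglb. Its wild-type libraries split by their place in the header, with R1 to R7 between 4.02 and 52.2 TPM and R8 to R12 between 371 and 495 TPM, whereas the null libraries G8 to G13 ranged from 8.94 to 313 TPM. Kif23, a motor of cytokinesis, ranged from 1.28 to 120 TPM and from 1.68 to 116 TPM. Hba-x is an embryonic globin, and its range was 58.8 to 5701 TPM in null and 25.8 to 1314 TPM in wild type.

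Detection was read apart from level. Of the kept genes, 5114 were detected in all 12 wild-type libraries and 4050 in all 13 null ones. A difference of at least 50 percentage points in the share of libraries was seen for 20 kept genes toward wild type and 2 toward null. These counts depended on the libraries: without G11 there were 61 toward wild type, and toward null there were 1 without R1 and 5 without G10. The earlier 14 columns gave 42 toward wild type and 59 toward null, the opposite balance, and the later 11 gave 531 and 16. The rule admits a gene detected in 13 null and 0 wild-type libraries but not the reverse, so genes outside it were counted too, and there 30 genes stood toward wild type and 5 toward null. Lpcat4 was detected in 4 of 13 null and 11 of 12 wild-type libraries. Edil3 was detected in 46.2% of null libraries (exact 95% binomial interval 19.2 to 74.9) against 100% of wild-type ones (73.5 to 100). Outside the rule, Efcab7 was detected in 1 of 13 null and 9 of 12 wild-type libraries, and Deup1, a gene of centriole amplification in multiciliated cells, in 0 of 13 and 7 of 12. A share of 0 of 13 allows up to 24.7% by the exact interval, and intervals cover counting error only. The histone gene Hist1h2bb stood toward null, in 8 of 13 against 1 of 12. These genes outside the rule were named after their values were seen.

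Chromosome 11 recombines in this mosaic, so its genes were set against the others. Its 815 kept genes had a median difference of -0.22, 0.02 above that of all kept genes, with 9 higher and 71 lower by 1 or more (9.82% together, beside 10.3% of all kept genes). The 14 other genes within 2 Mb of Axin2 had a median of -0.25, and of these 14 only Cep112 passed 1, on the lower side. Chromosome X, with 351 genes, had a median of -0.23, and the medians of the autosomes lay between -0.33 and -0.16.

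Markers of several cell types other than cortical neuroepithelium were present in both genotypes, and erythroid transcripts were the most abundant of those given here. Endothelial markers, 12 listed and 6 kept, summed to 33.2, 58.4 and 149 TPM in null and 42.6, 126 and 223 TPM in wild type, and the defining gene Pecam1 was detected in 4 of 13 null and 6 of 12 wild-type libraries. Kdr, the receptor for vascular endothelial growth factor, stood at 0, 0.88 and 7.78 TPM in null and 0.17, 5.58 and 16.4 TPM in wild type, a difference of -1.57. Mesenchymal markers summed to 68.5, 139 and 328 TPM in null and 84.5, 204 and 369 TPM in wild type, and microglial markers to 0, 29.5 and 154 TPM and 0, 27.9 and 865 TPM. The erythroid list summed to 2749, 7963 and 51767 TPM in null and 1263, 6540 and 32471 TPM in wild type. Of its 8 kept genes, 7 lay above 0, with a median of 0.49, beside 32.4% and -0.24 over all kept genes. Of 16 intestinal and pancreatic genes, 15 were listed at 0 in every library. The part of these transcripts in the differences above was not tested.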

How the data were processed

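Single-cell Smart-seq2 libraries of E11.5 medial cortex were measured in 13 Axin2-null and 12 Axin2 wild-type samples. The submitters' processing notes name the tools featureCounts, Trimmomatic and STAR 2.7.0a and the builds GRCm38 and mm10, and their roles and order are not given in the sources used here. The authors deposited TPM values per gene, which sum to a fixed total in each library. TPM keeps no depth, so the reads behind a value are unknown.

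Columns were assigned to a genotype by their names and could not be tied to numbered samples. Genes at 1 TPM or more in at least 13 of 25 libraries were kept. Levels were compared as mean log2(TPM + 1) and spread as the SD on that scale, with no test, because the labels name no animal. A difference of 1 in level, or 0.5 in SD, was counted. Genes named were Axin2; the 12 per direction with the largest difference in level among genes averaging 10 TPM or more in the higher genotype; the 8 per direction with the largest difference in SD among genes averaging 10 TPM or more and a level difference under 0.5; the 5 with the lowest and the 5 with the highest SD among genes in all 25 libraries averaging 50 TPM or more; and up to 3 members per list and direction. Predicted genes, clone names and pseudogenes were not named. Other list members were named for their known role after their values were seen, and some members are not reported here. The members and lists were chosen with earlier results of these data known. Exon lengths and overlaps came from GENCODE M21, promoters from RefSeq GRCm38.p6. Proportion intervals are exact 95% Clopper-Pearson intervals and cover counting error only. The formula for the difference in level was run on simulated normal log values with known shifts. That run did not test the counts and did not imitate values listed at 0. Alternatives covered the pseudocount, the filter, scaling, centring, column order and left-out libraries. Python 3.11.15, pandas 2.3.3, numpy 2.4.6, scipy 1.17.1 and matplotlib 3.10.9 were used. The 6 bulk samples of the series were not used here.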

Additional observations from a re-analysis of the deposited data

How the results depend on the processing

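Of the values recomputed for the counts, the list medians and Axin2, 250 stayed within the spread between libraries (or within 1.5 times for counts) and 39 did not. For differences reported at under 1 in size, a change of sign was not checked. The 250 therefore do not show that such a value kept its direction. The values reported were 119 genes higher and 932 lower by 1 or more, 1451 with a larger and 726 with a smaller SD in null by 0.5 or more, and 20 genes toward wild type and 2 toward null in detection. With a pseudocount of 0.1 TPM the level counts were 376 higher and 2196 lower and the SD counts 2941 larger and 1225 smaller; with 10 TPM they were 12, 30, 141 and 106. Keeping genes averaging 1 TPM or more gave 190 higher, an SD smaller for 1456, and 48 and 7 in detection. Requiring 7 libraries of either genotype gave 45 and 7 in detection, and a detection minimum of 5 TPM gave 91 toward wild type. Medians over libraries gave 283 higher, and all genes above 0 gave 190 higher. With the median absolute deviation in place of the SD, 1368 genes were smaller in null, and the difference in spread was -0.26 for Hist1h2ab, -0.10 for Fbxo44, -0.043 for Tpgs1, -0.057 for Uqcc3, 0.26 for Pstk and 0.025 for Fam216a. Without R1, G1 and G7, detection toward null was 5, and the SD difference was -0.031 for Slc25a1, 0.12 for Commd2 and 0.20 for Fam216a.

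The next alternatives were chosen after seeing the data. Without the 4 libraries rich in CT010467.1, detection was 49 and 6, with SD differences of 0.018 for Commd2 and 0.041 for Fam216a. The earlier 14 columns gave 576 higher, an SD smaller for 2009, 42 and 59 in detection, and -0.031 for Cby1. The later 11 gave 220 higher and 2229 lower, an SD larger for 3645, 531 and 16 in detection, and SD differences of -0.086 for Fbxo44, 0.00065 for Dlgap4, 0.11 for Fam216a, 0.12 for Selenop and 0.27 for Commd10. Subtracting the median of the length class gave 234 higher and 434 lower; subtracting the median of all genes gave 277 and 448, and a ribosomal protein median of 0.57.

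Leaving out each library in turn gave 85 (without R1) to 155 (without R11) higher, 818 (G7) to 1181 (G11) lower, an SD larger for 1203 (G7) to 1937 (R1) and smaller for 480 (R1) to 910 (G7), and detection of 18 (G9) to 61 (G11) toward wild type and 1 (R1) to 5 (G10) toward null. The SD difference ranged from -1.41 to 0.11 (R1) for Commd2, -1.50 to 0.17 (R1) for Fam216a and -1.49 to 0.12 (R2) for Commd10. The causes were not tested. No paired analysis was possible because the columns carry no replicate number that ties null to wild-type libraries and the results come from no test. Depth is unknown, so values listed at 0 cannot be separated from low expression.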

Other observations

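Genes of metabolism and protein handling were read beside all kept genes, whose median difference was -0.24, with 9.09% lower by 1 or more. Of 22 kept genes of cholesterol synthesis, 3 were lower in null by 1 or more, and the median was -0.24. Of 21 kept genes of the stress response, 1 was lower by 1 or more, and the median was -0.27. Among them Hspa5, the chaperone of the endoplasmic reticulum, stood at 74.2, 192 and 393 TPM in null and 255, 342 and 466 TPM in wild type. Its difference was -0.91, and 10 of 13 null libraries lay under the lowest wild-type one. Hspe1 and Phgdh went the other way, at 0.28 and 0.26. Of 21 autophagy and lysosome genes, 3 were lower by 1 or more. Among them were Atg7 at -1.82 and Ulk1 at -1.57. Of 29 genes of glycolysis and the hypoxia response the median was -0.06, and the lactate exporter gene Slc16a3 and the glucose transporter gene Slc2a3 were lower by 1 or more, at -1.78 and -1.07.

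Of all kept genes, 67.6% lay below 0 and 9.09% were lower by 1 or more. All 7 kept genes of the hedgehog pathway lay below 0, with a median of -0.74 and 0 past 1. Of 18 Notch pathway genes the median was -0.09, and Hey2, a Notch target, differed by -1.25. Of 19 genes of Bmp and Tgf-β signalling, 2 were lower by 1 or more, Msx2 and the signal transducer Smad2, which differed by -1.40. Of 13 genes of Cajal-Retzius cells, the early neurons that leave the cortical hem, 9 lay below and 4 above 0. Their median was -0.18, beside -0.24 over all kept genes, and 0.19 after the median of each length class was subtracted. Sema6a and Calb2 were lower by 1 or more, at -1.61 and -1.54. The 14 kept genes of intermediate progenitors had a median of -0.17 and 0 past 1, and the 18 housekeeping genes had 9 above and 9 below 0.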
